A study of Mus musculus with 10 samples.

Results

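The genes described here serve protein folding in the endoplasmic reticulum (ER), the compartment where secreted and membrane proteins are made, and the unfolded protein response that adjusts its capacity. They were 36 named genes: 29 ER chaperone, folding, translocation, export and degradation genes, the transcription factor Xbp1, and 6 genes of the ATF4 pathway. A gene was included when a probe set of the array carried its symbol and no other. This gave 34 of the 36 genes, among 19505 genes named in that way on the array. Livers came from male C57BL/6N mice, aged 8 weeks on arrival, and each liver was hybridized to 1 Clariom S Mouse Array. The iso-α-acids diet group (n = 5) had eaten AIN-93G diet with 0.5% w/w iso-α-acids, the bitter acids of beer, for 1 week. The control diet group (n = 5) was pair-fed the same diet without them. Every mouse in both groups had received acetaldehyde at 200 mg/kg by intraperitoneal injection, and livers were taken after the last blood sample, at 5 h. The comparison is therefore between diets in acetaldehyde-treated mice, with no untreated liver beside it. The mice used for arrays had been picked within each group for average serum enzyme values.

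Proteins that enter the ER are bound by lumenal chaperones, joined by disulfide bonds and, where they fail to fold, returned to the cytosol for degradation. When unfolded proteins accumulate, the sensors IRE1, ATF6 and PERK signal to the nucleus. IRE1 and ATF6 act mainly through XBP1 and cleaved ATF6 to raise chaperone and degradation genes, whereas PERK, like other kinases of the integrated stress response, acts through ATF4 on amino acid and stress genes. Hepatocytes secrete most plasma proteins and are rich in ER.

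Promoter elements linked to each branch are shown for a few members, since the results are ordered by branch. The window was 250 bases before to 50 bases after the annotated start, in RefSeq promoters of GRCm38.p6, and 31 of the 36 genes were in that table. Both strands were searched for the ER stress response element (CCAAT, 9 bases of any kind, CCACG), known to bind NF-Y and ATF6, for the related element II (ATTGG, 1 base of any kind, CCACG), and for the C/EBP-ATF response element (TGATG, 1 base of any kind, AA), which ATF4 dimers bind. The first was found in 9 of the 31 genes, against 0.137% of 27025 genes. Element II was found in Dnajb11 and Herpud1, against 0.0444% of all genes. The C/EBP-ATF element was found in 5 of the 31, namely Atf3, Trib3, Chac1, Asns and Herpud1, against 4.51% of all genes. Capitals mark the fixed letters of each element, each with 5 bases on either side, positions are those of the element counted from the start site, and the strand is that of the printed letters.
Hspa5, ER stress response element, chr2:34772020-34772048, plus strand, 65 to 47 bases before the start: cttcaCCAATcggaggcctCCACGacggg
Pdia6, ER stress response element, chr12:17266486-17266514, plus strand, 98 to 80 bases before the start: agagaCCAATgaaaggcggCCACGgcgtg
Dnajc3, ER stress response element, chr14:118937822-118937850, plus strand, 105 to 87 bases before the start: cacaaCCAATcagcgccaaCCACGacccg
Derl3, ER stress response element, chr10:75893237-75893265, minus strand, 156 to 138 bases before the start: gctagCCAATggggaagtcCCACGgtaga
Syvn1, ER stress response element, chr19:6046527-6046555, plus strand, 44 to 26 bases before the start: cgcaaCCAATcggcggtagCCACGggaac
Herpud1, element II, chr8:94386372-94386392, plus strand, 52 to 42 bases before the start: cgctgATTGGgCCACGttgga
Dnajb11, element II, chr16:22857847-22857867, plus strand, 7 to 17 bases after the start: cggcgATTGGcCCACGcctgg
Asns, C/EBP-ATF element, chr6:7693220-7693237, minus strand, 23 to 16 bases before the start: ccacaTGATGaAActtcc
Chac1, C/EBP-ATF element, chr2:119351044-119351061, minus strand, 193 to 186 bases before the start: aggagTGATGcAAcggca
The other genes with the first element were Hsp90b1, which held 1 copy on each strand, Calr, Canx and Creld2. A match describes these letters and is not evidence of binding in these livers.

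The values are log2 levels, and the authors' summarization gave most probe sets the same value on every array. Of 22206 probe sets, 19767 (89.0%) had an SD over the 10 arrays under 0.001 and are called flat here; their values show neither a difference nor its absence. Manf and Pdia4 had no probe set with their symbol alone. Flat members were Canx, the membrane-bound relative of calreticulin, Sec61a1 and Sec61b of the translocation channel, Sec11c of the signal peptidase, Ssr1 of the translocon-associated complex, Derl1 of the degradation channel, and Atf3, Ddit3 and Trib3 of the ATF4 pathway. The 2 probe sets of Ddit3, which encodes the stress factor CHOP, were both flat. This left 25 varying genes, 22 of the ER group with Xbp1 and 3 of the ATF4 pathway. Since that SD takes in both diets, counts of varying members are set beside those of the 2439 probe sets that varied by the same measure. Sel1l, an adaptor of the degradation complex, and Sec24d, a cargo-binding coat subunit of export vesicles, varied only barely. Their SD over the 10 arrays was 0.00118 and 0.0101.

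The ER genes lay mostly on the lower side in the iso-α-acids mice, by amounts that no member carried past the adjusted threshold of limma. Differences are iso-α-acids diet minus control diet on the log2 scale. By limma with Benjamini-Hochberg adjustment over all 22206 probe sets, 0 members were higher and 0 lower, where 0.590% of all probe sets were called higher and 0.171% lower (131 and 38 probe sets, or 92 and 91 with arrays centred on their varying probe sets). Of the varying probe sets, 5.13% were called higher and 1.07% lower. Unadjusted, limma put 1 member higher and 8 lower at p under 0.05, against 22.6% and 14.6% of the varying probe sets and 4.81% and 5.02% of all. When limma was fitted to the varying probe sets alone, with the variance moderation refitted too, it called 0 members higher and 3 lower (Ppib, Edem1 and Derl3), against 13.4% and 6.89%. Rank products, the method the study names, was computed anew here, so its calls need not be those of the authors. It called 0 members higher and 14 lower, against 33.5% and 28.4% of the varying probe sets and 3.72% and 3.19% of all. When rank products ranked only the varying probe sets, it called 0 members in either direction, against 3.81% higher and 3.08% lower. None of the 14 was called in that ranking.

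**Figure D1:**
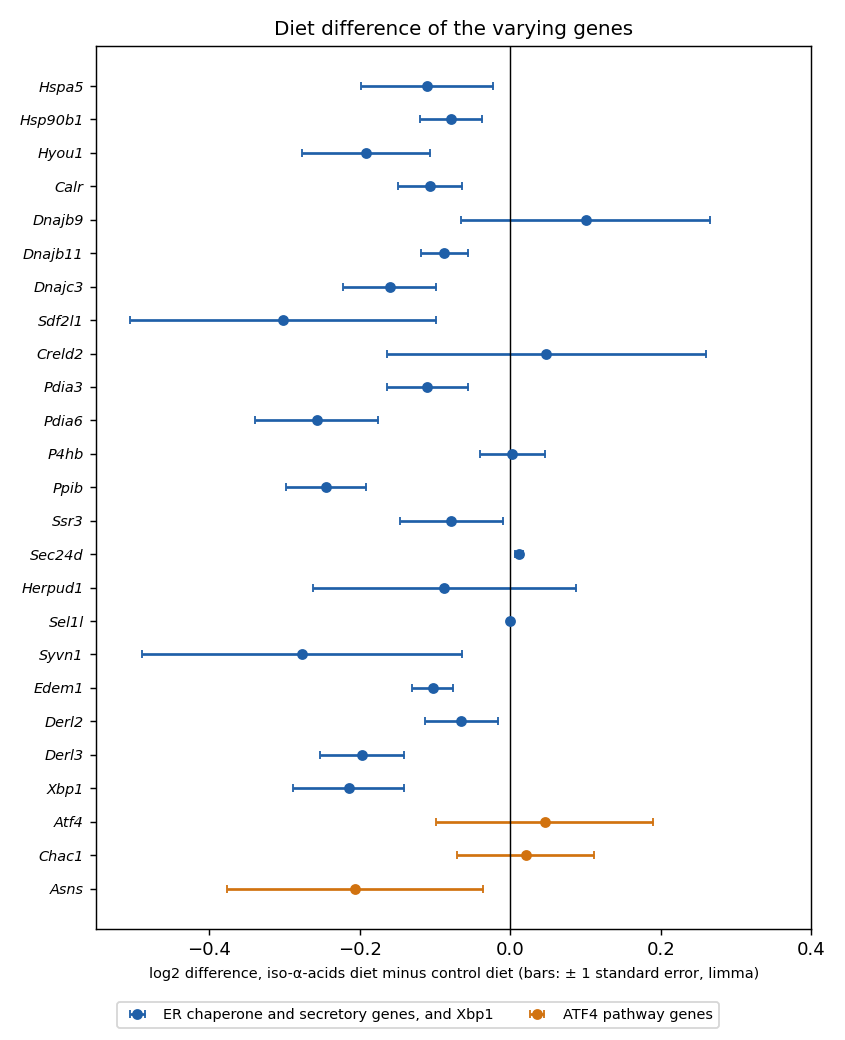
Log2 difference, iso-α-acids diet minus control diet, on the horizontal axis for each of the 25 varying genes, ordered by role. Points are differences of group means and bars are ± 1 standard error from limma (n = 5 per group). Of the 22 blue ER genes 18 lie left of 0, with wide bars for Sdf2l1, Syvn1, Creld2 and Dnajb9, and the 3 orange ATF4 pathway genes lie on both sides, though left of 0 with arrays centred or quantile normalized again.

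By direction, 19 of the 25 varying members had a negative difference (76.0%), against 46.4% of all varying probe sets. The median difference of the 22 ER genes was -0.10, with a range of -0.30 to 0.10. That of the 3 ATF4 pathway genes was 0.02, the value of Chac1 (-0.06 without iso-α-acids replicate 1), with a range of -0.21 to 0.05. The mean differences were -0.11 and -0.05 in the same order. Over all varying probe sets the median was 0.01. With arrays centred on their varying probe sets the medians were -0.165 for the ER genes and -0.0394 for the ATF4 genes, while the differences of all varying probe sets shifted by a median of -0.06. Without iso-α-acids replicate 1, a mouse that stood apart, 21 of the 25 members were negative and the ER median was -0.10, against 45.3% negative and a median of 0.02 over all varying probe sets. The members share regulators and mice and are not independent observations.

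The lumenal chaperones were negative in all 4 varying genes, with levels that overlapped between diets. Hspa5 encodes BiP, the main ER chaperone and a regulator of the stress sensors. It lay at 12.11, 12.27, 12.53, 12.42 and 12.27 in iso-α-acids mice 1 to 5 and at 12.51, 12.29, 12.58, 12.32 and 12.45 in control mice 1 to 5. Replicate 1 was the lowest of the 5 iso-α-acids mice and the range of each diet covered most of the other. The difference was -0.11 (SE 0.087, 95% interval -0.31 to 0.09, limma adjusted p = 0.775), being -0.06 without that mouse and -0.07 without control replicate 3.

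Calr, calreticulin, which binds glycoproteins, was at 12.02, 12.10, 12.13, 12.16 and 12.06 in the iso-α-acids mice and at 12.30, 12.09, 12.25, 12.16 and 12.20 in the control mice. Its difference was -0.11 (SE 0.043, limma adjusted p = 0.449, unadjusted exact permutation p = 0.0476), with overlap only through control replicate 2. Hyou1, a large chaperone that serves as a nucleotide exchange factor of BiP, differed by -0.19 (SE 0.085, limma adjusted p = 0.518), with levels of 10.93 to 11.24 in the iso-α-acids mice and 11.05 to 11.41 in the control mice. Hsp90b1, GRP94, the ER member of the HSP90 family, differed by -0.08 (SE 0.042, limma adjusted p = 0.611). All 4 had their lowest iso-α-acids level in replicate 1, as had 50.1% of the varying probe sets. Rank products called Hspa5, Hyou1 and Calr lower with all mice, and none of the 4 without iso-α-acids replicate 1.

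Among co-chaperones and stress-induced lumenal proteins, 3 of 5 varying genes were negative. Dnajb11, a J-domain protein that delivers substrates to BiP, was at 8.81, 8.79, 8.84, 8.79 and 8.78 in iso-α-acids mice and at 8.96, 8.83, 8.93, 8.81 and 8.92 in control mice. The iso-α-acids mice lay close together, while control replicates 2 and 4 fell among them. The difference was -0.09 (SE 0.032, limma adjusted p = 0.383, unadjusted exact permutation p = 0.0397). Dnajc3, which encodes p58IPK, a co-chaperone and inhibitor of PERK, was at 10.33, 10.19, 10.32, 10.23 and 10.15 in the iso-α-acids mice and at 10.49, 10.20, 10.46, 10.40 and 10.45 in the control mice. Only control replicate 2 lay within the range of the iso-α-acids mice. The difference was -0.16 (SE 0.062, limma adjusted p = 0.420, unadjusted exact permutation p = 0.0397).

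Sdf2l1, part of the chaperone complex around BiP, had a difference of -0.30 (SE 0.20, limma adjusted p = 0.713), which was -0.20 without control replicate 1 or without control replicate 3. Its levels were 8.53, 8.73, 8.88, 8.86 and 8.50 in the iso-α-acids mice and 9.43, 8.45, 9.42, 8.74 and 8.98 in the control mice. Control replicates 1, 3 and 5 exceeded every iso-α-acids mouse, and control replicate 2 was below them all. Creld2, an ER stress-inducible protein, and Dnajb9, which encodes ERdj4, a BiP co-chaperone, had positive differences, 0.05 (SE 0.21) and 0.10 (SE 0.17). Their limma adjusted p values were 0.976 and 0.916, both signs turned without control replicate 2 (-0.08 and -0.0080), that of Creld2 also without iso-α-acids replicate 3 or control replicate 4 (-0.04 each), and in both genes the control mice spread further than the iso-α-acids mice.

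The folding enzymes held the most separated gene of the set. Ppib encodes cyclophilin B, a prolyl isomerase of the ER. Its levels were 10.34, 10.42, 10.43, 10.37 and 10.36 in the iso-α-acids mice and 10.77, 10.48, 10.71, 10.55 and 10.64 in the control mice. Every iso-α-acids mouse was below every control mouse. The difference was -0.25 (SE 0.053, limma adjusted p = 0.114), which is 0.844 times the control diet level. The unadjusted exact permutation p was 0.00794, the smallest that 5 against 5 mice allow in a two-sided test. Groups without overlap always give that value, so it adds nothing to the absence of overlap. Such an absence of overlap in the lower direction was found for 3 of the varying members (12.0%), Ppib, Edem1 and Derl3, against 7.30% of all varying probe sets, and in the higher direction for 0, against 12.1%.

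Pdia6, a disulfide isomerase that also binds IRE1, was at 10.63, 10.82, 10.99, 10.88 and 10.79 in the iso-α-acids mice and at 11.22, 10.90, 11.18, 11.01 and 11.08 in the control mice. Only control replicate 2 lay among the iso-α-acids mice. Its difference was -0.26 (SE 0.082, limma adjusted p = 0.307, unadjusted exact permutation p = 0.0159). Pdia3, the disulfide isomerase that works with calreticulin, differed by -0.11 (SE 0.054, limma adjusted p = 0.572). P4hb, the founding protein disulfide isomerase, differed by 0.00 (SE 0.043), with levels of 10.96 to 11.02 in the iso-α-acids mice and 10.87 to 11.11 in the control mice.

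**Figure D2:**
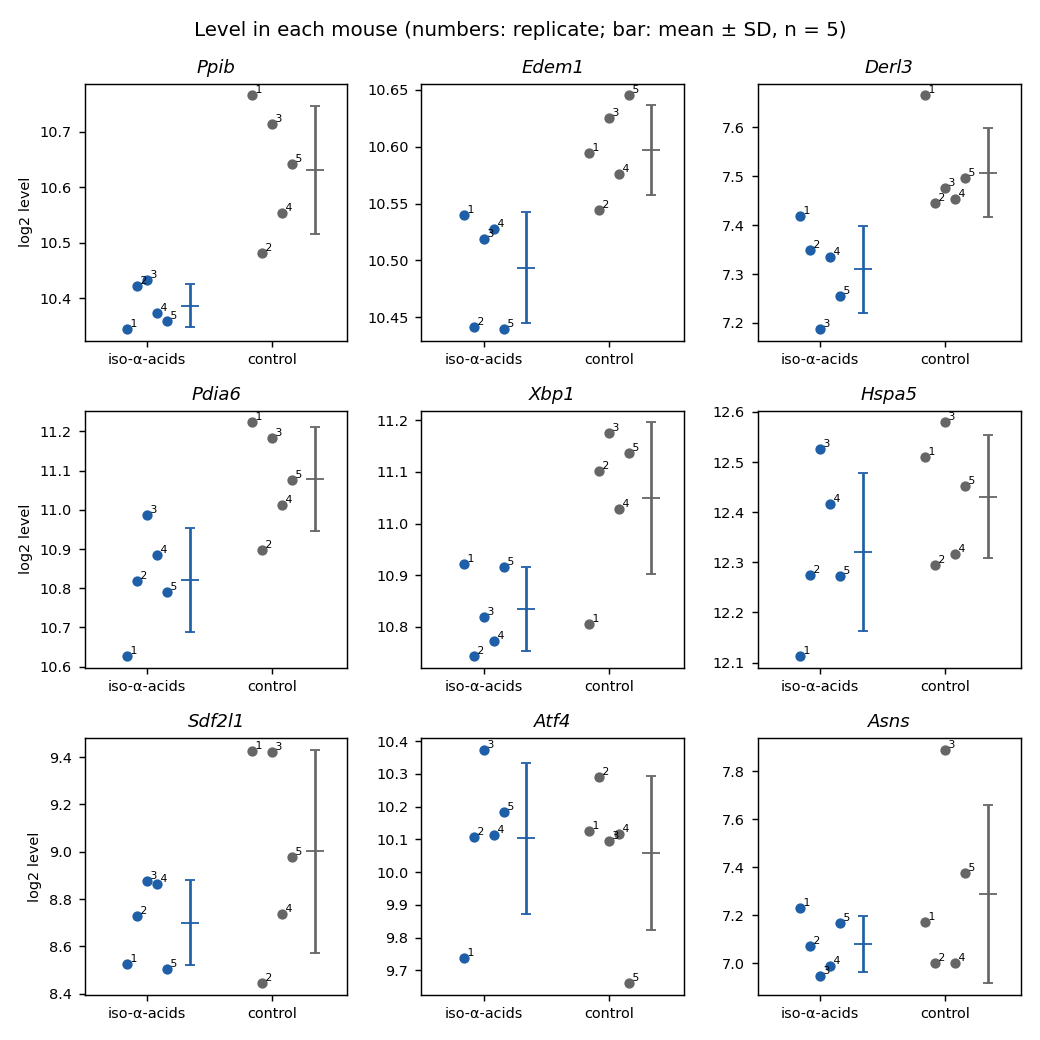
Log2 level on the vertical axis of 9 members in each mouse, iso-α-acids diet in blue at left and control diet in grey at right, with replicate numbers beside the points and bars for mean ± SD (n = 5 per group). Ppib, Edem1 and Derl3 show no overlap between diets, Pdia6 and Xbp1 overlap through 1 control mouse each, and Hspa5, Sdf2l1, Atf4 and Asns overlap widely.

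The ER degradation genes were negative in all 6 varying cases, and Edem1 and Derl3 did not overlap between diets. Edem1 recognizes trimmed glycans on misfolded glycoproteins. It was at 10.54, 10.44, 10.52, 10.53 and 10.44 in the iso-α-acids mice and at 10.59, 10.54, 10.62, 10.58 and 10.64 in the control mice, and the groups were separated by only 0.0043. The difference was -0.10 (SE 0.027, limma adjusted p = 0.204), and the exact permutation p was again the 0.00794 fixed by absent overlap. Derl3, a derlin of the retrotranslocation channel, was at 7.42, 7.35, 7.19, 7.33 and 7.26 in the iso-α-acids mice and at 7.67, 7.44, 7.48, 7.45 and 7.50 in the control mice, where replicate 1 stood above the other 4. Its difference was -0.20 (SE 0.056, limma adjusted p = 0.231), with the same fixed exact permutation p of 0.00794.

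The ubiquitin ligase gene Syvn1, HRD1 of the degradation complex, varied more than any other degradation gene. It was at 9.21, 9.69, 10.03, 10.03 and 9.74 in the iso-α-acids mice and at 10.05, 9.64, 10.56, 9.79 and 10.06 in the control mice. Iso-α-acids replicate 1 was lowest and control replicate 3 highest of all 10. The difference was -0.28 (SE 0.21, limma adjusted p = 0.766), and -0.14 without either of those mice. Herpud1, an ER-stress-inducible organizer of the same complex, was instead highest in iso-α-acids replicate 1, at 11.70 against 10.94 to 11.26 in the other 4 iso-α-acids mice and 10.92 to 11.65 in the control mice. Its difference was -0.09 (SE 0.18, limma adjusted p = 0.937), -0.21 without that mouse and -0.0022 without control replicate 3. Derl2 differed by -0.06 (SE 0.049) and Sel1l by -0.0008.

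Xbp1, whose spliced mRNA encodes the factor that raises many of these genes, was at 10.92, 10.74, 10.82, 10.77 and 10.92 in the iso-α-acids mice and at 10.80, 11.10, 11.18, 11.03 and 11.14 in the control mice. Control replicate 1 was among the iso-α-acids mice and the other 4 control mice were above all of them. The difference was -0.21 (SE 0.074, limma adjusted p = 0.347, unadjusted exact permutation p = 0.0397). A probe set reads total transcript and does not separate spliced from unspliced Xbp1. Of the translocation and export genes, Ssr3 of the translocon-associated complex differed by -0.08 (SE 0.068), and Sec24d was the only member with an unadjusted p under 0.05 in the higher direction. Sec24d levels were 9.32, 9.30, 9.32, 9.31 and 9.31 in the iso-α-acids mice and 9.31, 9.28, 9.30, 9.30 and 9.29 in the control mice. Its difference was 0.01 (SE 0.0052, limma adjusted p = 0.491, unadjusted exact permutation p = 0.0476), and -0.05 with arrays centred on their varying probe sets.

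The ATF4 pathway members had differences of both signs in the deposited values, and all 3 were negative with arrays centred on their varying probe sets or quantile normalized again. Atf4 itself was at 9.74, 10.11, 10.37, 10.11 and 10.18 in the iso-α-acids mice and at 10.13, 10.29, 10.09, 10.12 and 9.66 in the control mice. Each diet held 1 low mouse, iso-α-acids replicate 1 and control replicate 5. The difference was 0.05 (SE 0.14, 95% interval -0.28 to 0.38, limma adjusted p = 0.963). ATF4 is regulated largely by translation, which an mRNA array does not read.

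Chac1, a glutathione-degrading enzyme induced by ATF4, was at 6.97, 6.59, 6.60, 6.53 and 6.64 in the iso-α-acids mice and at 6.48, 6.70, 6.59, 6.76 and 6.70 in the control mice. Iso-α-acids replicate 1 was the highest of the 10 mice. The difference was 0.02 (SE 0.091, limma adjusted p = 0.976), and -0.06 without that mouse. Asns, asparagine synthetase and a target of ATF4, was at 7.23, 7.07, 6.95, 6.99 and 7.17 in the iso-α-acids mice and at 7.17, 7.00, 7.89, 7.00 and 7.37 in the control mice. Control replicate 3 stood above all other mice. The difference was -0.21 (SE 0.17, 95% interval -0.60 to 0.18, limma adjusted p = 0.788), and -0.06 without that mouse. Rank products called Asns lower with all mice and without iso-α-acids replicate 1, but not when it ranked only the varying probe sets.

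Between ER genes and ATF4 pathway genes no difference was tested, since only 3 ATF4 genes varied. Of the 22 ER genes, 10 had an ER stress response element of either kind in the searched window and 11 did not, while Hyou1 was not in the table. The 10 were negative in 9 with a median of -0.11 and the 11 in 8 with a median of -0.08, and rank products called 7 and 5 of them lower, against 28.4% of all varying probe sets. The ranges of both sets overlapped and no difference between them was tested.

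**Figure D3:**
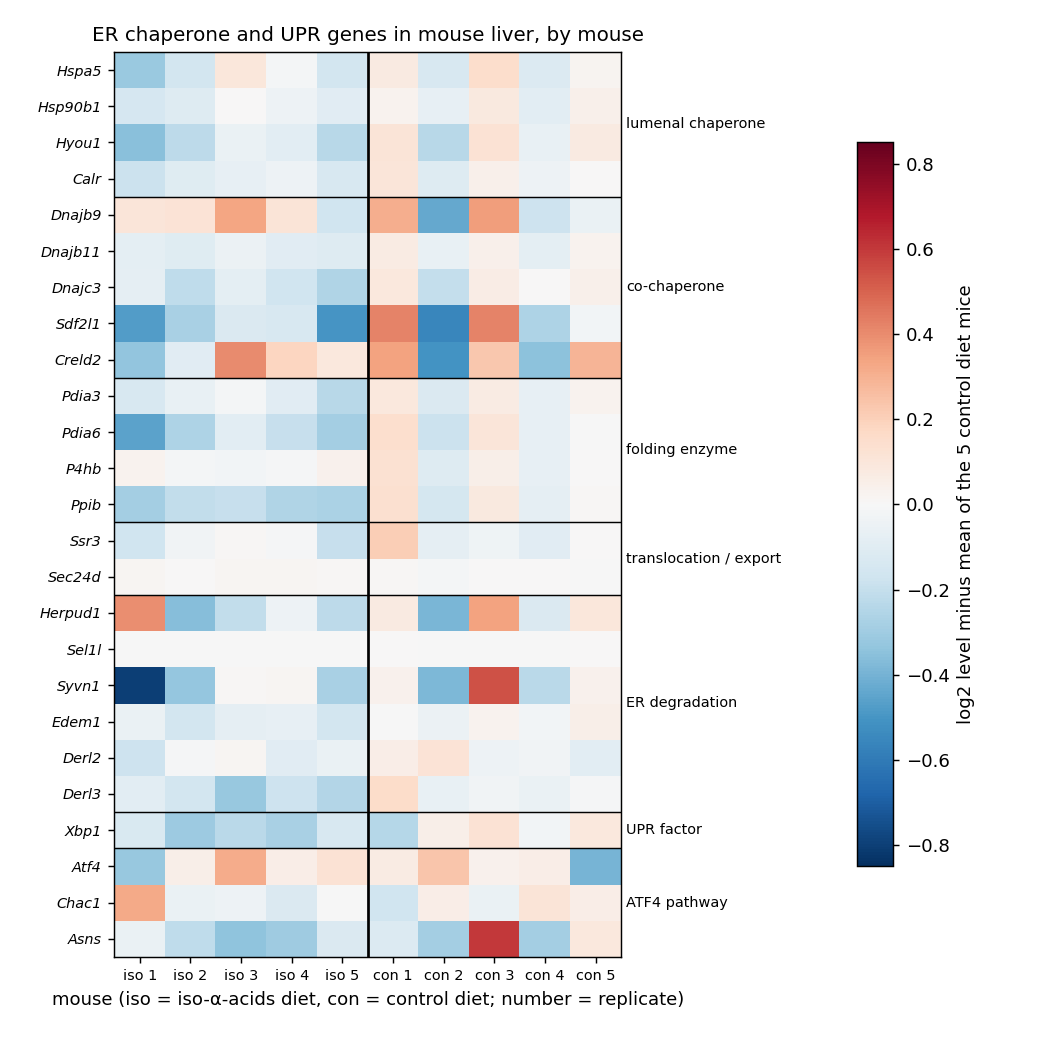
Log2 level minus the mean of the 5 control mice (colour scale) for the 25 varying genes, in rows by role, with the 5 iso-α-acids mice in the left block and the 5 control mice in the right. Control replicates 1 and 3 are mostly red and replicates 2 and 4 mostly blue over the ER genes, and iso-α-acids diet replicate 1 is deep blue in Syvn1 and red in Herpud1 and Chac1.

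Within the control diet, the ER genes tended to be high or low in the same mice. The average deviation from the control diet mean over the 22 ER genes was -0.17, -0.14, -0.03, -0.07 and -0.16 in iso-α-acids mice 1 to 5 and 0.11, -0.17, 0.12, -0.09 and 0.03 in control mice 1 to 5. All 5 iso-α-acids mice lay below the control diet mean, and control replicates 2 and 4 lay among them, so the groups overlapped. The ATF4 average was -0.02, -0.07, -0.02, -0.12 and 0.00 in the iso-α-acids mice and -0.07, 0.00, 0.19, -0.04 and -0.08 in the control mice, where the value of replicate 3 came mainly from Asns.

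Replicate 2 or 4 was the lowest control mouse in 20 of the 22 ER genes, against 33.9% of varying probe sets, and replicate 1 or 3 was the highest in 20 of 22, against 52.8%. These pairs had the lowest and highest control averages over the same genes, so high counts follow from that choice and are not a test. The pattern was not particular to the members. Among the 28 varying genes of a wider ER list, described below, replicate 2 or 4 was lowest in 22 (78.6%). Replicate 1 or 3 was highest in 21 of them (75%). The SD was larger in control mice than in iso-α-acids mice for 18 of the 22 ER genes and 2 of the 3 ATF4 genes, 20 of 25 in all, against 33.5% of varying probe sets. Without iso-α-acids replicate 1 this held for 22 of 25, against 78.4%, a share near that background. The median SD of the 22 ER genes was 0.083 in the iso-α-acids mice and 0.116 in the control mice. Sdf2l1 had an SD of 0.179 in the iso-α-acids mice and 0.429 in the control mice, and Asns 0.118 and 0.371 in the same order.

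**Figure D4:**
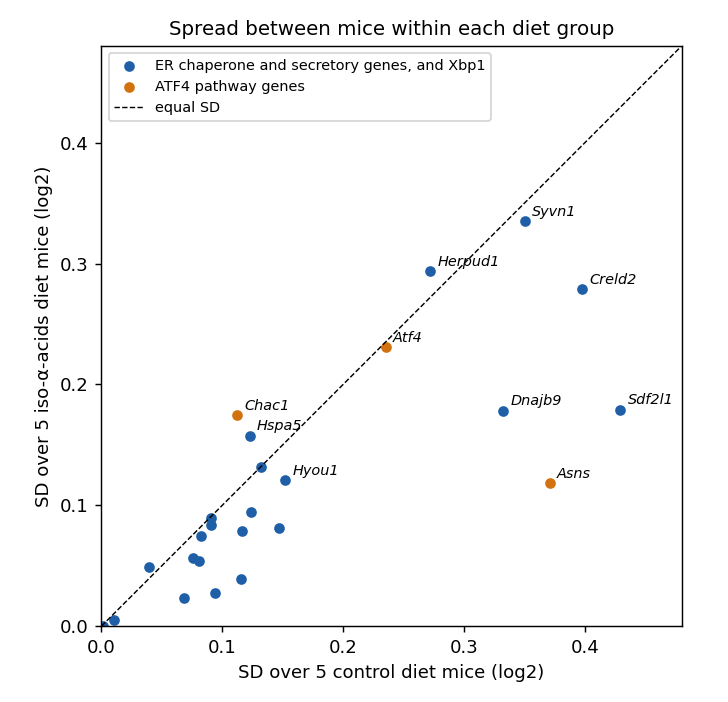
SD over 5 iso-α-acids mice (vertical axis) against SD over 5 control mice (horizontal axis), on the log2 scale, for the 25 varying genes, with the dashed line at equality. Most points lie below the line, Sdf2l1, Dnajb9 and Asns furthest from it, and Chac1 and Hspa5 lie above it.

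Iso-α-acids replicate 1 stood apart from the other mice of its diet. Its metallothionein Mt1 was at 12.84 against 8.68 to 9.42 in the others, and its sterol synthesis genes Hmgcs1 and Sqle were at 9.11 and 6.02 against 11.61 to 11.72 and 8.24 to 8.42. Without it, rank products called 10 members lower in place of 14, against 24.8% of varying probe sets, and Hspa5, Hyou1, Calr, Pdia3 and Syvn1 were no longer called while Herpud1 was. In the control mice the acute phase genes Lcn2 and Saa1 were at 10.89 and 10.86 in replicate 3 and at 10.55 and 10.53 in replicate 5, against 8.15 to 8.45 and 8.40 to 8.68 in the other 3. Their part in the ER results was not tested.

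Liver macrophages gave a marker difference in the same direction. In whole liver, fewer cells of a type and less RNA per cell cannot be told apart. Of 5 Kupffer cell markers 4 varied (Clec4f, Cd5l, Adgre1 and Vsig4) and 1, Marco, was flat. Against 28.4% of varying probe sets, rank products called all 4 lower, and limma called 0 of these markers. Their mean log2 level was 7.75 to 8.09 in the iso-α-acids mice and 8.19 to 8.70 in the control mice, without overlap, and control replicates 2 and 4 had the lowest values of the control diet. The part of these cells in the ER results was not tested. The hepatocyte markers Cps1 and Cyp2e1 averaged 12.41 to 12.81 in the iso-α-acids mice and 12.43 to 12.55 in the control mice, with Alb, Ttr and Apoa1 flat. The upper end was iso-α-acids replicate 1. Its deviation from the control diet mean was 0.314, against -0.023, -0.006, -0.016 and -0.083 in replicates 2 to 5. Rank products called Cps1 lower (-0.12, SE 0.085) and Cyp2e1 higher (0.19, SE 0.069), and limma called neither. All 9 pancreatic acinar markers measured, from a tissue rich in ER that can adhere to liver, were flat, and so were all those measured for stellate cells, cholangiocytes, neutrophils and T cells. Of 4 sinusoidal endothelial markers only Lyve1 varied, at 7.78 to 7.99 in the iso-α-acids mice and 7.88 to 8.22 in the control mice, a difference of -0.16 (SE 0.077) called lower by rank products and not by limma. Of 5 B and plasma cell markers measured 4 were flat. Only Sdc1 varied, with a difference of 0.18 (SE 0.087) called higher by rank products and not by limma. That marker alone does not show a change in these cells. Their part in the ER results was not tested either.

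Other genes of the same pathways were taken from wider lists. Of 95 further ER folding and secretory genes with a probe set, 28 varied, 0 passed limma over all probe sets, 3 were higher and 6 lower by the unadjusted p, and rank products called 4 higher and 9 lower. The lower calls were 21.4% and 32.1% of the 28, against 14.6% and 28.4% of all varying probe sets. The higher calls were 10.7% and 14.3%, against 22.6% and 33.5%. Their median difference was -0.02 and 60.7% of the 28 were negative. Examples, picked after their values were seen, are given here with limma's adjusted p. Uggt1, the glucosyltransferase that checks glycoprotein folding, was at 9.77, 9.76, 9.88, 9.79 and 9.74 in the iso-α-acids mice and at 10.21, 9.87, 10.08, 9.96 and 10.05 in the control mice, a difference of -0.25 (SE 0.062, limma adjusted p = 0.167). Only control replicate 2 fell within the iso-α-acids range. Mia3, which helps load large cargo into export vesicles, had the opposite sign without overlap, at 10.58, 10.13, 10.24, 10.17 and 10.14 in the iso-α-acids mice and at 9.98, 9.85, 9.88, 9.98 and 9.88 in the control mice, a difference of 0.34 (SE 0.087, limma adjusted p = 0.186). Ern1, the gene of the sensor IRE1, differed by -0.13 (SE 0.046, limma adjusted p = 0.361), and Eif2ak3, which encodes PERK, Atf6 and Atf6b were flat.

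Of 47 further ATF4-linked genes with a probe set, 10 varied, 0 passed limma, 2 were higher and 1 lower by the unadjusted p, and rank products called 3 higher and 2 lower (30.0% and 20.0%, against 33.5% and 28.4% of all varying probe sets), with a median of -0.02. Gpt2, a mitochondrial alanine aminotransferase, differed by 0.30 (SE 0.093, limma adjusted p = 0.297), and Got1, the cytosolic aspartate aminotransferase, by -0.37 (SE 0.13, limma adjusted p = 0.383). Fgf21, Psat1, Phgdh, Slc7a11 and Ppp1r15a, often induced in the integrated stress response, were flat.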

How the data were processed

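Clariom S Mouse Arrays were used for total liver RNA of 10 mice, 1 array each. The authors quantile normalized the arrays and summarized each probe set with qFARMS, and the deposited log2 values were used without further normalization. The log base was inferred from their range (4.94 to 13.37), and the settings of qFARMS are not given in the sources used here. This summarization returns a nearly constant value where it finds no signal shared by the probes of a set, and it shrinks noise in the others. Symbols came from the platform annotation, and probe sets annotated with several symbols were left out when genes were looked up. For a gene with several probe sets the one with the highest mean was taken.

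Diets were compared with limma 3.58.1 (lmFit, eBayes without trend, prior degrees of freedom 0.348) in R 4.3.3, with Benjamini-Hochberg adjustment over all 22206 probe sets and a threshold of 0.05. Single genes were also compared by a two-sided exact permutation test over all labelings of 5 against 5 mice. Its p values are not adjusted for the number of genes. Rank products was a separate implementation that used the median over 120 pairings of arrays, with p from a gamma distribution and an FDR per direction. The procedures were tested on simulated data with independent noise in each probe set. For recovery, the check required only that changes far larger than the member differences given here were called. Alternatives were leaving out each mouse, varying probe sets only, the dimmest 25% left out, centring, repeated quantile normalization, a replicate block, trend with robust variance, and rank products. Centring and quantile normalization were applied to varying probe sets only. For centring this was set after its result over all probe sets had been seen, and the runs of rank products over varying probe sets or without 1 mouse were added after the data were seen.

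The members and gene lists were chosen with earlier results of these data known. Values in full were given for varying members with an unadjusted p under 0.05 or no overlap between diets and for the varying ATF4 pathway genes, and Hspa5, Sdf2l1 and Syvn1 were added after their values were seen. The number of arrays, 5 per diet, limits the precision.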

Additional observations from a re-analysis of the deposited data

Results flagged for a closer look

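Of 50 groups of 5 mice (25 varying members in each diet), 2 held a mouse far from the others of its diet, where chance alone marks about 1 in 20. In Derl3, control replicate 1 was the highest at 7.67, with a gap to the nearest mouse of 0.769 of the group's range. In Chac1, iso-α-acids replicate 1 was the highest at 6.97, with a gap of 0.736 of the range. The limit for 5 mice is 0.71.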

How the results depend on the processing

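With all mice, limma called 131 probe sets higher and 38 lower and 0 members. Leaving out each mouse in turn gave 65 to 349 higher and 6 to 147 lower, both highest without iso-α-acids replicate 1, and 0 members each time. The ER median ranged from -0.137 to -0.0845 and the ATF4 median from -0.0555 to 0.0481. The ATF4 median was -0.0555 without iso-α-acids replicate 1 and -0.0536 without control replicate 5. Fitting varying probe sets only, which changed both the variance moderation and the number adjusted for, gave 327 higher and 168 lower with 3 members lower. Trend with robust variance gave 23 lower. Centring gave 92 higher and 91 lower, with an ER median of -0.165 and an ATF4 median of -0.0394, and repeated quantile normalization 87 lower with 1 member lower, Ppib. Rank products gave 826 higher and 708 lower with 14 members lower. Over varying probe sets only it gave 75 lower and 0 members, and without iso-α-acids replicate 1 it gave 802 higher and 606 lower with 10 members lower. The cause of these differences was not tested.

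The replicate block gave 21 higher, 1 lower and 0 members. Deviations of mice with the same number correlated between -0.21 and 0.23. Of the 5 iso-α-acids mice, 1 correlated best with its own number, and of the control mice 0. The sample labels state no pairing by number, and correlations between so few mice cannot exclude one.

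Of the members whose difference changed sign, none was called by limma. Leaving out 1 mouse at a time gave P4hb -0.0244 to 0.0349, Chac1 -0.0555 to 0.0554, Creld2 -0.0793 to 0.144, Atf4 -0.0536 to 0.137 and Dnajb9 -0.0080 to 0.189. Centring gave -0.0116 for Creld2, -0.0568 for P4hb, -0.0476 for Sec24d, -0.0141 for Atf4 and -0.0394 for Chac1. Quantile normalization gave -0.0443 for P4hb, -0.0428 for Sec24d, -0.0186 for Atf4 and -0.0174 for Chac1.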
